A study of Mus musculus with 3 samples.

Results

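The protamines Prm1, Prm2 and Prm3, the transition proteins Tnp1 and Tnp2 and the spermatid linker histones Hils1 and H1fnt were described in 3 mouse single-cell libraries. The genes were chosen by symbol, and all 7 were found among the 26124 genes listed in every library. The chimera cauda library, labelled Pax7-nGFP iPS x goGermline and given as spermatids and spermatozoa, came from a Tsc22d3-KO host that had received mouse induced pluripotent stem cells, and the KO cauda library, of the line goGermline and given as epididymal cells, came from a Tsc22d3-KO animal without them. Both hold cells drawn by percutaneous aspiration out of the cauda, the last stretch of the epididymis, where sperm wait before ejaculation. The KO testis library, of the line goGermline and given as testicular cells, was prepared from the testis of an adult Tsc22d3-KO mouse. All 3 libraries share the knockout of the host, and in the chimera the host's cells and the donor's cells cannot be told apart from gene counts. The ages of the cauda animals, and whether the KO libraries shared an animal, are not given in the sources used here. With 1 library per group there was no spread between animals, and no test of a condition could be run.

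In the spermatid, histones are removed from DNA in steps. Transition proteins take their place first, and protamines, small and rich in arginine, then pack the DNA into the condensed sperm head. Hils1 and H1fnt encode linker histones found in spermatids, and Prm3 encodes an acidic protein of elongating spermatids that has its name from its place beside the protamine genes. The mRNAs of protamines and transition proteins are transcribed in round spermatids, held untranslated, and used later, when transcription has stopped. Sperm that leave the testis carry remnants of these mRNAs and make no new ones.

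The 7 genes lie on 4 chromosomes of GRCm38, with positions from the GENCODE M21 annotation. Tnp2 (ENSMUSG00000043050, chr16:10787936-10788660), Prm3 (ENSMUSG00000050058, chr16:10790505-10790914), Prm2 (ENSMUSG00000038015, chr16:10791380-10796134) and Prm1 (ENSMUSG00000022501, chr16:10796326-10805839) follow each other on the minus strand within 17.9 kb. Tnp1 (ENSMUSG00000026182, chr1:73015074-73015909) and H1fnt (ENSMUSG00000048077, chr15:98255986-98257293) are also on the minus strand. Hils1 (ENSMUSG00000038994, chr11:94967593-94968456) is on the plus strand and overlaps Sgca, a muscle membrane gene on the other strand, which held 0 UMIs in the chimera cauda, 1 in the KO cauda and 53 in the KO testis. Whether the counting used strand is not given in the sources used here, so the Hils1 counts are less certain than the others. The genes that overlap Prm1 and Tnp1 on the other strand are not among the counted genes.

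Since the 5 protamine and transition protein genes were high in the same library, the bases before their RefSeq starts are shown (RefSeq, GRCm38.p6, 5′ to 3′ on the strand of the gene). The stretches are chr16:10796880-10796923 for Prm1, chr16:10792106-10792205 for Prm2, chr16:10790915-10791014 for Prm3, chr1:73015910-73015999 for Tnp1 and chr16:10788661-10788755 for Tnp2. Each begins 100 bases before the start and stops where GENCODE annotates a UTR, or at the end of a motif. Capitals mark the letters TGACNTCA, a form of the cAMP response element, or the TATA-box letters TATAAA or TATATA, searched on both strands.
Prm1: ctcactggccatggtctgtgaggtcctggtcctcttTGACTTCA
Prm2: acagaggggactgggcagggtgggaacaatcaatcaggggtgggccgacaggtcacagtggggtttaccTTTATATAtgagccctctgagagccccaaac
Prm3: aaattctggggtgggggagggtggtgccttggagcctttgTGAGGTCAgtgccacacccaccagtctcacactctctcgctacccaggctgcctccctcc
Tnp1: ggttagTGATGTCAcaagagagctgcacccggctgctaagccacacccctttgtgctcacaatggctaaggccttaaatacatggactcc
Tnp2: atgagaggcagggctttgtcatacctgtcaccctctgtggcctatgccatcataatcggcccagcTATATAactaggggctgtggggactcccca
In the 100 bases before the start, TGACNTCA stood in 3 of the 7 genes (Prm1, Prm3 and Tnp1), and in 4.63% of 32851 RefSeq promoters over the same window. TATAAA or TATATA stood in 2 of the 7 (Prm2 and Tnp2), and in 7.03% of those promoters. In Prm2 a TATAAA on the other strand and a TATATA overlap. None of these letters stood in this window of Hils1 or H1fnt. A match describes letters and does not show that a factor binds there.

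The chimera cauda held 5395856 UMIs (unique molecular identifiers, 1 per captured transcript molecule), the KO cauda 41862286 and the KO testis 134795047. The chimera matrix lists 301167 barcodes, of which 214502 held a UMI and 222 reached 500 UMIs. The KO cauda matrix lists 3937 barcodes and the KO testis matrix 18108, and none of these falls below 500 UMIs. Because a 3′ tag is counted once per molecule whatever the length of the transcript, levels of different genes are compared as molecules. Levels are given as CPM, that is, UMIs divided by the total of the library and brought to a common scale. Intervals are exact 95% intervals (Poisson for levels, Clopper-Pearson for shares, conditional binomial for folds), and they cover counting error only. A count of 0 allows up to 3 UMIs.

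The cauda libraries share barcodes, and this bears on every comparison between them. All 3937 KO cauda barcodes are listed in the chimera cauda, 3936 of them with at least 1 UMI there, whereas 1350 of the KO testis barcodes (7.46%) are. Of the 222 chimera barcodes with at least 500 UMIs, 125 are also KO cauda barcodes, and 121 of these held more UMIs in the chimera, with a median ratio of 5.47 over the 125. For the 125, the correlation of the log profiles of the same barcode in both libraries had a median of 0.774, against 0.550 for different barcodes. The other 3812 barcodes held in the chimera a median of 0.901% of their KO cauda UMIs (0.688% to 1.19% from the 5th to the 95th percentile), and both totals were ranked almost alike (Spearman rho 0.983 over 3812 barcodes, a description). Folds and shares below are given with and without shared barcodes, and most joint counts over unshared barcodes. The counts of genes per barcode and the search for like genes use all chimera barcodes.

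**Figure D1:**
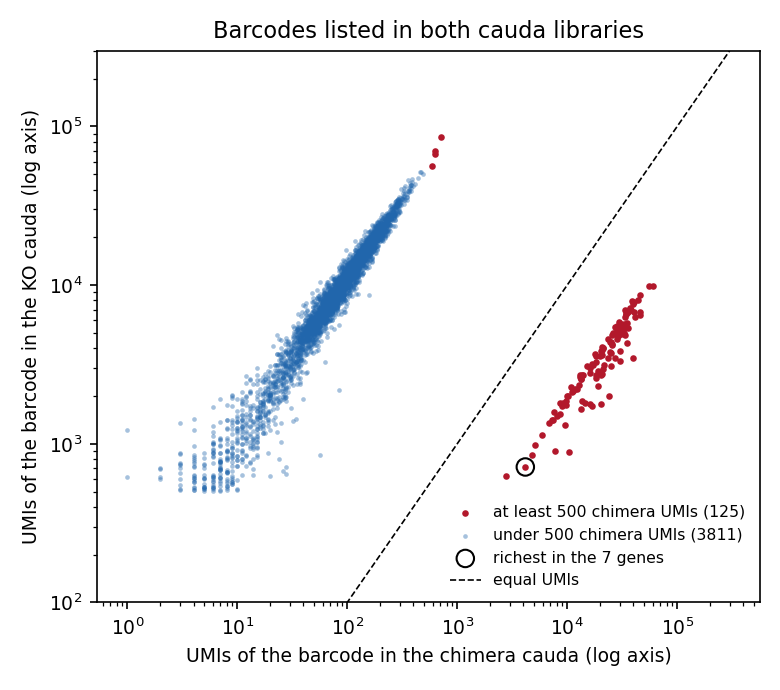
UMIs of each barcode listed in both cauda libraries, in the chimera cauda (x axis, log) against the KO cauda (y axis, log), for the 3936 barcodes with a chimera UMI. The barcodes form 2 bands, 1 with many more UMIs in the chimera and 1 with about 0.901% of the KO cauda UMIs, and the circled barcode, with 4162 chimera UMIs and 714 KO cauda UMIs, is the one richest in the 7 genes.

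Protamine and transition protein mRNAs were abundant in the chimera cauda and nearly missing from both KO libraries. Together the 7 genes made up 34096 UMIs (6319 CPM) in the chimera cauda, against 168 UMIs (4.01 CPM) in the KO cauda and 42 UMIs (0.312 CPM) in the KO testis. All 7 were at least 4-fold higher in the chimera cauda than in the KO cauda. Of the 17008 genes with more than 3 UMIs in either cauda library, 12.7% were. All 7 also passed 10-fold, as did 6.66% of genes, and without the filter on low counts 24.2% of 19588 genes passed 4-fold. The median log2 ratio, with counts under 3 UMIs set to 3, was 9.20 for the 7 genes and 0.24 for all genes tested. In a library sum, fewer cells of a type and less RNA per cell cannot be told apart.

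Prm2 was the most abundant of the 7, with 20635 UMIs (3824 CPM, 3772 to 3877) in the chimera cauda, against 40 UMIs (0.956 CPM) in the KO cauda, and 4 UMIs (0.0297 CPM) in the KO testis. By UMIs it was number 28 among the 16995 genes seen in the chimera. Prm1 followed with 7402 UMIs (1372 CPM, 1341 to 1403) in the chimera cauda, against 54 (1.29 CPM) in the KO cauda, and 12 (0.0890 CPM) were seen in the KO testis. The intervals of the chimera and KO levels did not overlap for either protamine. Over the KO cauda the fold was 4002 (2938 to 5604) for Prm2 and 1063 (814 to 1417) for Prm1. These folds use all chimera barcodes, while the KO cauda holds none under 500 UMIs. With chimera barcodes of at least 500 UMIs alone, the fold was 319 (233 to 450) for Prm2 and 114 (85.6 to 154) for Prm1. The richest barcode, listed in both cauda libraries, held 175 of the 898 Prm2 and 334 of the 432 Prm1 chimera UMIs used here. In the KO cauda it held 34 of 40 and 48 of 54.

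The transition proteins stood lower than both protamines. Tnp2 had 2879 UMIs (534 CPM, 514 to 553) in the chimera cauda, 38 in the KO cauda and 6 in the KO testis. Tnp1 had 2269 UMIs (421 CPM, 403 to 438) in the chimera cauda, 30 in the KO cauda and 19 in the KO testis. Over the KO cauda these are folds of 588 (427 to 832) for Tnp2 and 587 (409.9 to 872) for Tnp1. With chimera barcodes of at least 500 UMIs alone, the folds were 76.8 (54.1 to 112) for Tnp2 and 110 (75.0 to 167) for Tnp1. The richest barcode, listed in both cauda libraries, held 158 of the 205 Tnp2 and 195 of the 232 Tnp1 chimera UMIs used here. In the KO cauda it held 33 of 38 and 28 of 30, so these folds largely set that barcode against itself. Tnp1 had the most UMIs of the 7 genes in the KO testis, not apart from Prm1 by counting error, while in the chimera it came after Prm2, Prm1 and Tnp2.

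Prm3 and the linker histones were the lowest. Prm3 had 701 UMIs (130 CPM, 120 to 139.9) in the chimera cauda, 1 in the KO cauda and 0 in the KO testis, a ratio of 5439 (973 to 215113) over the KO cauda. With chimera barcodes of at least 500 UMIs alone, this ratio was 925 (160 to 37085). H1fnt had 160 UMIs (29.7 CPM, 25.2 to 34.6) in the chimera cauda, 2 in the KO cauda and 1 in the KO testis. Hils1 had 50 UMIs (9.27 CPM, 6.88 to 12.2) in the chimera cauda, 3 in the KO cauda and 0 in the KO testis. In the chimera the order was therefore Prm2, Prm1, Tnp2, Tnp1, Prm3, H1fnt and Hils1, and the intervals of neighbours in it did not overlap.

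**Figure D2:**
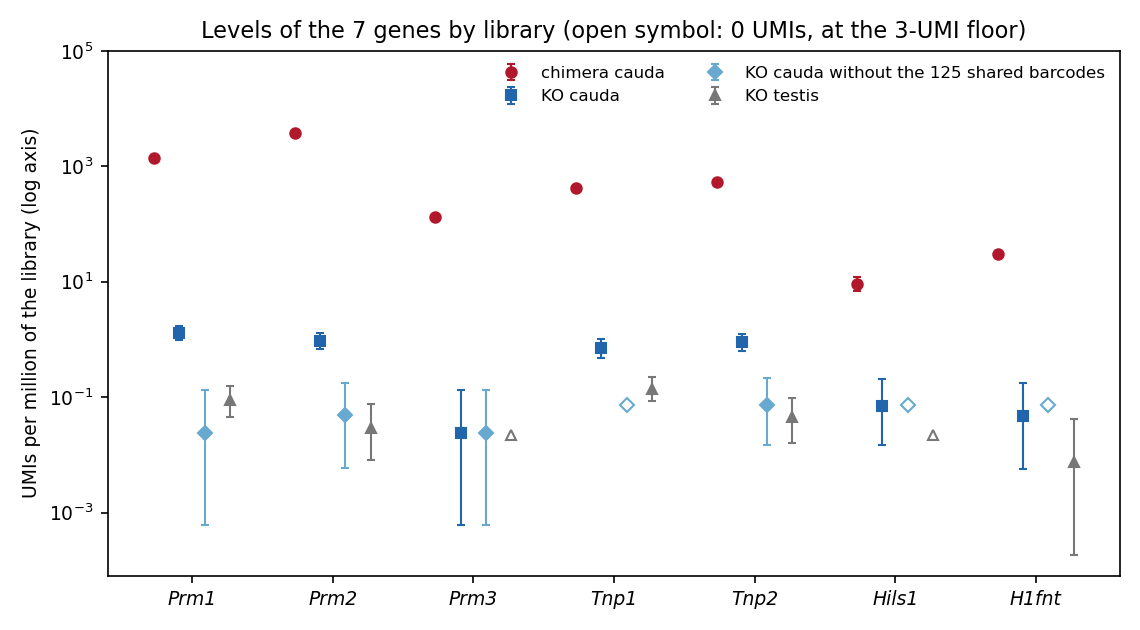
Level of each gene in CPM (log axis) in the chimera cauda, the KO cauda, the KO cauda without the 125 barcodes that reach 500 UMIs in the chimera, and the KO testis. Points are library values with exact Poisson 95% intervals, open symbols stand at the 3-UMI floor of a gene with 0 UMIs, and the chimera values lie between 9.27 and 3824 CPM, above all KO values.

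Of the 168 KO cauda UMIs, 161 were in the 125 barcodes that reach 500 UMIs in the chimera. Among them, 148 (88.1%) were in 1 barcode of 714 UMIs, with 48 UMIs of Prm1, 34 of Prm2, 28 of Tnp1, 33 of Tnp2, 3 of Hils1, 2 of H1fnt and 0 of Prm3. The same barcode is the richest of the chimera, with 4162 UMIs, of which 334 were Prm1, 175 Prm2, 195 Tnp1, 158 Tnp2, 13 Prm3, 6 H1fnt and 4 Hils1. The KO cauda thus held 16.7% of the chimera's count of the 7 genes in that barcode and 17.2% of its UMIs. Without the 125, the KO cauda kept 7 UMIs of the 7 genes in 6 of 3812 barcodes (0.170 CPM, 0.0685 to 0.351). Tnp2 had 3 of these, Prm2 had 2, and Prm1 and Prm3 had 1 each.

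The fold of the summed genes moved with the barcodes used. It was 1575 (1353 to 1843) over all barcodes, and 37110 (18009 to 92308) without those 125 KO cauda barcodes. Without them the ratio was 56394 (10119 to 2227740) for Prm1, 78606 (21758 to 649122) for Prm2, 5341 (955 to 211245) for Prm3 and 7311 (2499 to 35475) for Tnp2, all against 1 to 3 KO cauda UMIs. Tnp1, H1fnt and Hils1 kept 0 UMIs in the KO cauda. Against a floor of 3 UMIs in the library, the ratio was 5762 for Tnp1, 406 for H1fnt and 127 for Hils1. The lower limits of the exact intervals were 4682, 327 and 99.5. All 7 genes were again at least 4-fold higher, as were 12.9% of 16984 genes. In chimera barcodes of at least 500 UMIs, set against the KO cauda, the fold was 159 (136 to 187), with all 7 genes and 14.0% of 16591 genes at least 4-fold higher. The richest barcode held 885 of the 1875 chimera UMIs of the 7 genes there and 148 of the 168 in the KO cauda. This fold thus partly sets that barcode against itself.

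In the KO testis the 42 UMIs were spread over 41 of 18108 barcodes, and no barcode held 2 of the genes. Barcodes of all libraries were grouped with the 7 genes left out. Of the 19 Tnp1 UMIs, 12 were in 11 of 138 spermatocyte-like cells (6.24 CPM, 3.22 to 10.9), a cluster with 6 spermatocyte markers raised. These cells held 0 UMIs of the other 6 genes, among them 0 of the 12 Prm1 UMIs. Leydig-like cells, which should lack the gene and were deeper (median 15692 UMIs against 9337.5), held Tnp1 in 1 of 3093 cells. In the KO testis, then, Tnp1 was seen mostly in germ cell-like barcodes, and Prm1 had 4 UMIs each in fibroblast-like and macrophage-like cells.

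Most of the chimera's protamine and transition protein mRNA lay in barcodes below the 500 UMIs at which the KO matrices begin. Barcodes under 500 UMIs held 94.5% (94.3 to 94.7) of the UMIs of the 7 genes, and 97.7% with shared barcodes left out, against 45.5% of all UMIs. The share was 95.6% for Prm2, 94.2% for Prm1, 92.9% for Tnp2, 90.7% for Prm3 and 89.8% for Tnp1. It was lower for the linker histones, at 81.2% (74.3 to 87.0) for H1fnt and 74.0% (59.7 to 85.4) for Hils1. Barcodes with 20 to 49 UMIs that are not listed in the KO cauda alone carried 54.0% of the UMIs of the 7 genes.

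At every depth from 10 to 499 UMIs the 7 genes took a larger share in unshared than in shared barcodes. Among chimera barcodes not listed in the KO cauda, the 7 genes took 19.5 UMIs per 1000 in barcodes of 10 to 19 UMIs, 17.2 (17.0 to 17.5) at 20 to 49, 10.9 at 50 to 99, 16.8 at 100 to 199 and 15.3 at 200 to 499. In chimera barcodes that are also KO cauda barcodes the values at the same depths were 1.28, 1.06 (0.674 to 1.60), 0.549, 0.680 and 0.555. At 20 to 49 UMIs at least 1 of the genes was seen in 35.1% of the 38165 unshared barcodes and in 3.45% of the 609 shared ones. Above 5000 UMIs, where 118 of 119 barcodes were shared, the 7 genes took 0.0810 UMIs per 1000 in the shared barcodes. Markers of other cells were also present in the unshared barcodes of 20 to 49 UMIs, with 24.1 UMIs per 1000 for 8 macrophage genes, 19.3 for 5 erythroid genes and 5.75 for 8 genes of epididymal principal cells. Their part in the result was not tested.

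**Figure D3:**
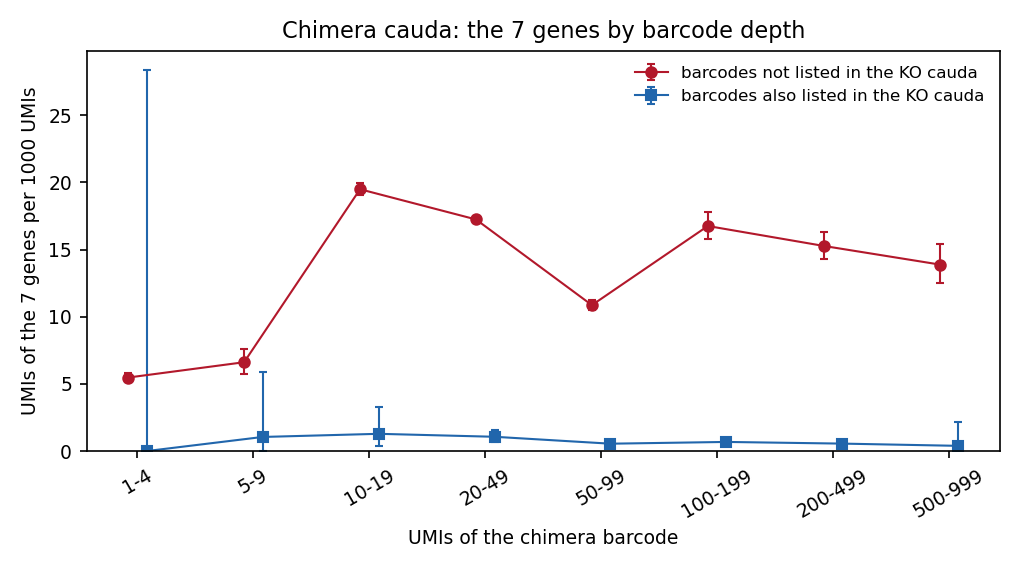
UMIs of the 7 genes per 1000 UMIs (y axis) in chimera barcodes grouped by total UMIs (x axis), with exact Poisson 95% intervals, for barcodes not listed in the KO cauda and for barcodes listed in both. From 10 to 499 UMIs the unshared barcodes lie between 10.9 and 19.5 and the shared ones between 0.549 and 1.28.

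Among the 222 chimera barcodes of at least 500 UMIs, 184 passed the filters for cells and fell into 3 classes. A spermatid-like class of 25 barcodes, with all 13 tail and cytoplasm markers of spermatids raised, held 1400 UMIs of the 7 genes (41326 CPM), of which 885 were in the richest barcode. Without that barcode the class stood at 17331 CPM. Macrophage-like cells, which should lack these mRNAs, stood at 108 CPM (93.7 to 123), with Prm2 seen in 61 of 84 cells at a median of 25189.5 UMIs. B lymphocyte-like cells stood at 274 CPM (240 to 310), with Prm2 in 47 of 75 cells at a median of 10096 UMIs. In this class 1 barcode held 40 of the 243 UMIs of the 7 genes, and without it the class stood at 229 CPM. The class held 34 UMIs of Prm3 and 16 of H1fnt, against 21 and 13 in the spermatid-like class. Of its 75 barcodes, 51 are listed in the KO cauda. Whether spermatid barcodes are mixed into this class was not tested. Prm2 was seen in 19 of the 25 spermatid-like barcodes at a median of only 1254 UMIs, and Tnp1 in 2 of them. Since macrophage-like cells should lack Prm2, the share of barcodes with a Prm2 UMI does not by itself show expression. By level, Prm2 stood at 65.7 CPM in macrophage-like cells and at 15750 CPM in the spermatid-like class without its richest barcode. The origin of the Prm2 UMIs in macrophage-like cells was not tested.

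The ratio of Prm2 to Prm1 varied with barcode depth. Over all chimera barcodes Prm2 made up 73.6% (73.1 to 74.1) of the UMIs of both genes, or 2.79 UMIs of Prm2 for each of Prm1, and in unshared barcodes 74.3%. By depth, the share in unshared barcodes was 79.1% (76.3 to 81.8) at 1 to 4 UMIs and 69.9% (62.3 to 76.9) at 5 to 9. It was 72.8% at 10 to 19 UMIs, 73.3% at 20 to 49 and 73.0% at 50 to 99, with overlapping intervals. It was higher from 100 UMIs on, at 81.5% (78.8 to 84.0) at 100 to 199, 82.6% (79.7 to 85.3) at 200 to 499, 94.5% (91.4 to 96.8) at 500 to 999 and 88.5% (84.4 to 91.9) at 1000 to 4999 UMIs. At 500 to 999 UMIs 1 barcode held 116 of the 293 Prm2 UMIs, and at 1000 to 4999 UMIs another held 155 of 270. The intervals treat UMIs as independent, so a few barcodes can set the shares at all depths from 100 UMIs on. Over all barcodes of at least 500 UMIs the Prm2 share was 67.5% (64.9 to 70.03), and 88.1% (85.6 to 90.2) without the richest barcode, which therefore set the direction of that difference.

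Transition protein mRNA, relative to the protamines, showed no steady course with depth and was lowest at 500 to 999 UMIs. In unshared barcodes Tnp1 and Tnp2 together held 17.8 UMIs per 100 protamine UMIs (Prm1 plus Prm2) at 20 to 49 UMIs, 18.99 at 50 to 99, 13.1 at 100 to 199, 14.9 at 200 to 499, 5.81 at 500 to 999 and 12.8 at 1000 to 4999. Prm3 held 2.42, 2.12, 2.90, 3.44, 10 and 6.23 per 100 protamine UMIs at these depths. The last 2 of these classes held 40 and 56 barcodes, so a few barcodes can set their values.

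A single barcode rarely held more than 1 of the genes. Of the 23122 chimera barcodes with any of the 7, 20358 (88.0%) held 1 of them, 2547 held 2 and 170 held 3. A further 32 barcodes held 4 genes, 9 held 5 and 5 held 6. The richest barcode was the only one in the chimera with all 7. Most of these barcodes, 17089 (73.9%), held 1 UMI of the 7 genes in all, at a median depth of 23 UMIs. That makes joint presence hard to see at this depth.

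At 20 to 49 UMIs Prm1 and Prm2 were seen together hardly more often than the product of their shares. Of 8828 barcodes with Prm2, 836 (9.47%, 8.87 to 10.1) held Prm1, against 2723 of 29946 (9.09%, 8.77 to 9.42) without Prm2. In unshared barcodes the share with Prm2 was 9.48%. With every unshared barcode of at least 20 UMIs thinned to 20 (167084 chimera barcodes, shared ones included, were shallower), the shares were 7.14% and 6.62%, with overlapping intervals. Within depth classes thinned alike they were 7.10% and 7.09% at 20 to 49 UMIs, 7.01% (5.04 to 9.46) and 3.93% (3.37 to 4.55) at 50 to 99, 9.23% (3.46 to 19.02) and 3.06% (1.64 to 5.17) at 100 to 199, and 18.2% (5.19 to 40.3) and 1.80% (0.372 to 5.16) at 200 to 499. The intervals stood apart at 50 to 99 and 200 to 499 UMIs, the last from 4 of 22 barcodes with Prm2 and 3 of 167 without. At 500 UMIs or more no barcode kept Prm1 after thinning. Without thinning Prm1 was seen in 9.75% and Prm2 in 24.0% of all unshared barcodes of at least 20 UMIs. Tnp1 and Tnp2 were together in 46 unshared barcodes of 20 to 49 UMIs, 1.199 times the product of their shares, and Prm1 and Tnp2 in 161, 1.27 times.

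For pairs among Prm1, Prm2, Tnp1 and Tnp2, joint presence mostly stood further above that product in barcodes of 50 to 499 UMIs. These classes were not thinned here, and depth varies within each, which can raise the joint count of any pair. Joint counts after thinning were taken for Prm1 with Prm2 only, so the part of depth in the other pairs was not tested. In unshared barcodes the joint count over the product of shares for Prm1 and Prm2 was 1.02 at 20 to 49 UMIs, 1.17 at 50 to 99, 1.35 at 100 to 199, 1.68 at 200 to 499 and 1.43 at 500 or more. For Tnp1 and Tnp2 it was 1.199, 1.94, 3.68, 8.53 and 2.27 at these depths, the last 2 values from 6 joint barcodes of 189 and 3 of 97. For Prm1 and Tnp1 it was 1.25, 1.54, 3.50, 2.92 and 2.11, and for Prm1 and Tnp2 1.27, 1.48, 2.58, 2.69 and 2.90. Prm2 had 1.71 with Tnp1 and 1.39 with Tnp2 at 200 to 499 UMIs. The value cannot exceed 1 over the larger share, which allows 2.39 for a pair with Prm2 and 9.95 for Tnp1 with Tnp2 at that depth, so the pairs cannot be ranked by it. For Prm2 and Prm3 the value was 0.889 at 10 to 19 UMIs, 0.762 at 20 to 49 and 0.925 at 50 to 99. It was 2.26 at 100 to 199 UMIs, 1.91 at 200 to 499 and 1.83 at 500 or more. In unshared barcodes of at least 500 UMIs, Prm3 was seen in 16 of 53 barcodes with Prm2 and in 0 of 44 without it (upper limit 8.04%). At 20 to 49 UMIs it was seen in 54 of 8815 with Prm2 (0.613%) and 253 of 29350 without it (0.862%), with overlapping intervals.

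**Figure D4:**
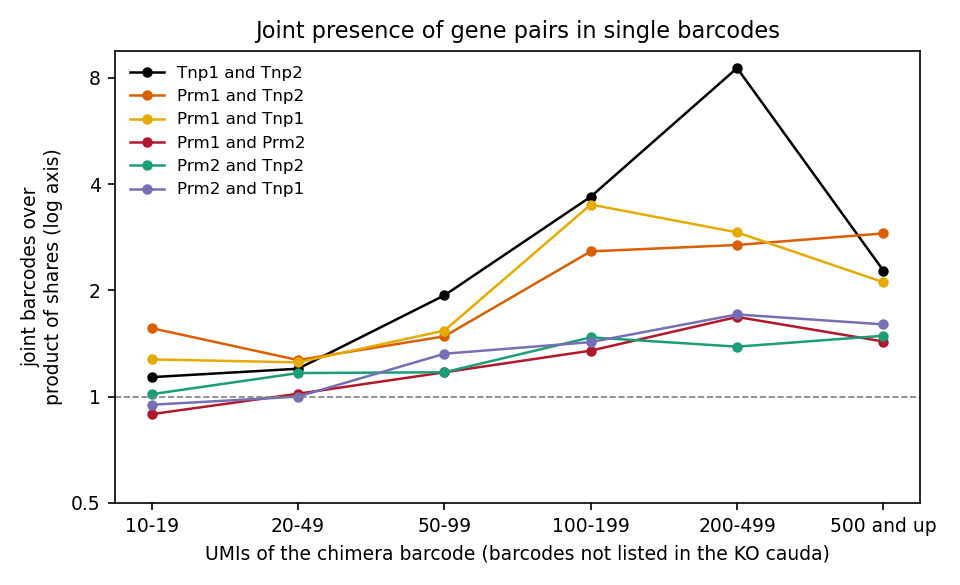
Number of chimera barcodes that hold both genes of a pair, over the product of the shares that hold each (y axis, log), by barcode depth (x axis), for 6 pairs in barcodes not listed in the KO cauda. The line at 1 is the product itself. Tnp1 with Tnp2 has its highest value, 8.53, at 200 to 499 UMIs and 2.27 above that, but pairs differ in the highest value they can reach.

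The number of UMIs of 1 protamine was set beside the presence of the other genes, in unshared barcodes of at least 20 UMIs. Prm1 was seen in 9.49% of 33334 barcodes with no Prm2 UMI, 10.1% of 8068 with 1, 10.7% of 1884 with 2 and 12.5% of 392 with 3. It was seen in 43.1% (29.3 to 57.8) of 51 barcodes with 5 to 9 Prm2 UMIs and in 34.6% (22.0 to 49.1) of 52 with 10 or more. In those 52, Tnp1 was seen in 3 and Tnp2 in 14. Taken by Prm1, the pattern was another one: all 13 barcodes with 5 to 9 Prm1 UMIs held Prm2, 8 held Tnp1 and 11 held Tnp2. All 10 barcodes with 10 or more Prm1 UMIs held Prm2, 7 held Tnp1 and 9 held Tnp2. Barcodes with more UMIs of a protamine were also deeper, with medians of 97 and 191.5 UMIs in the Prm2 classes and 105 and 245.5 in the Prm1 classes.

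The 67 chimera barcodes with at least 10 UMIs of Prm1 plus Prm2 showed how differently single barcodes were composed. They held 8.43% of the UMIs of the 7 genes, and 1 of them, the richest, is listed in the KO cauda. In 45 of the 67 at least 90% of the protamine UMIs were Prm2, in 8 the share was 50% to 90%, and in 14 it was under 50%. These limits were set after the values were seen, so the groups are a description.

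The 45 barcodes with at least 90% Prm2 held 1253 UMIs of Prm2 and 20 of Prm1, with Prm1 seen in 11 of them. Tnp1 was seen in 0 of the 45 and Tnp2 in 7, which gives 0.786 transition protein UMIs per 100 protamine UMIs. They held 119 UMIs of the 13 tail and cytoplasm genes per 100 protamine UMIs, at a median depth of 199 UMIs. The Prm2 share is what chose this group. Tail and cytoplasm UMIs outnumbered protamine UMIs in 17 of the 45, and 1 barcode held 338 of the 1509 tail and cytoplasm UMIs beside 43 of Prm2. Without it the group had 95.2 per 100.

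The 14 barcodes with under 50% Prm2 held 507 UMIs of Prm1 and 257 of Prm2. Tnp1 was seen in 13 of them and Tnp2 in 12, which gives 66.5 transition protein UMIs per 100 protamine UMIs and 60.8 without the richest barcode. The tail and cytoplasm genes held 35.6 per 100 here and 46.3 without the richest barcode, at a median depth of 146.5 UMIs. The one barcode without a transition protein UMI held 16 of Prm1, 2 of Prm2 and 1 of Prm3 among 72 UMIs. Another held 18 of Prm1, 9 of Prm2, 27 of Tnp2 and 3 of Tnp1 among 419. The 8 barcodes between these groups had 10.6 transition protein UMIs per 100 protamine UMIs, nearly all Tnp2, with 21 UMIs of Tnp2 and 3 of Tnp1.

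Macrophage markers took 124 of 15184 UMIs in the 45 barcodes and 47 of 8369 in the 14, and B lymphocyte markers 30 and 8. Linker histones were seen in 5 of the 45 barcodes and in 4 of the 14, and Prm3 in 14 of the 45 and 5 of the 14. Outside the 67 barcodes the values lay in between for transition proteins, with 17.9 per 100 protamine UMIs and a Prm2 share of 73.6%, and above both groups for tail and cytoplasm genes, with 212 per 100. The 67 barcodes were chosen by their protamine UMIs, the base of these ratios, so a lower tail value within them is partly set by that choice.

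**Figure D5:**
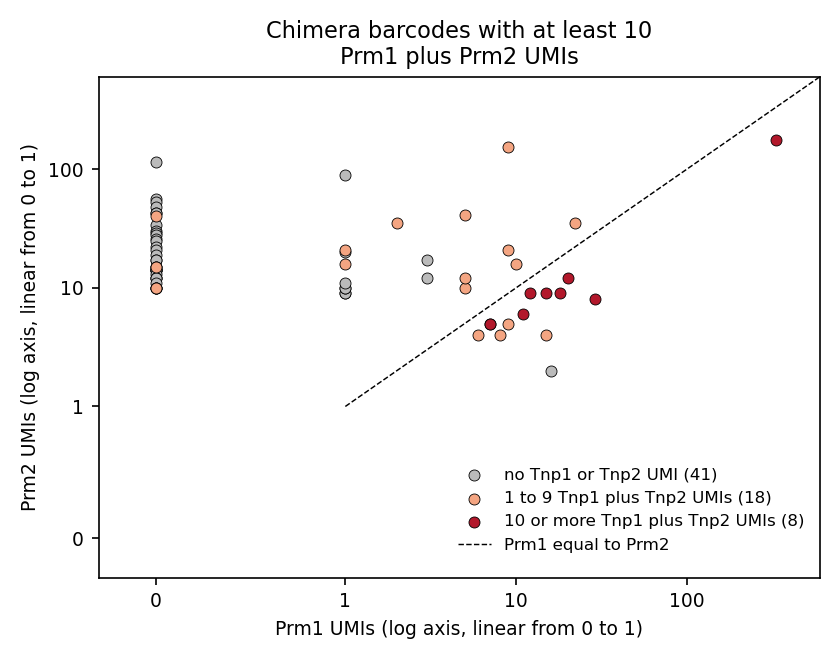
Prm1 UMIs (x axis) against Prm2 UMIs (y axis) in the 67 chimera barcodes with at least 10 of both together, on log axes that are linear from 0 to 1, coloured by the UMIs of Tnp1 plus Tnp2. Barcodes with 10 or more Tnp UMIs (8) lie below the line of equal counts, and most of those with none (41) lie at 0 or 1 Prm1 UMI.

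The genes most like the protamines were sought among 639 genes with at least 200 UMIs in chimera barcodes of 20 to 49 UMIs. The measure was the level per 1000 UMIs in 11551 barcodes with a protamine UMI over that in 27223 without. Its median was 1.01, and the 5th and 95th percentiles were 0.846 and 1.24. The highest was Spem2, a gene of spermatid maturation, at 1.49 (1.11 to 1.98), from 213 UMIs. The genes named here were picked by this value out of 639, and the intervals do not allow for that choice. Among the other high genes were Lyz1 at 1.44, Rpl22l1 at 1.40, Spata3 at 1.39, Gapdhs, the sperm form of a glycolytic enzyme, at 1.38 (1.19 to 1.60), and Tma7 at 1.35. Of the genes named, Spem2, Spata3 and Gapdhs were nearly missing from the KO cauda (0, 0.0239 and 0.167 CPM), while Lyz1, Rpl22l1 and Tma7 stood between 284 and 752 CPM there. The lowest were Fxr1 at 0.707, Taldo1 at 0.729, Ppp1ca at 0.730, Cyb5a at 0.737 and Hnrnpa1 at 0.750. The tail and cytoplasm genes with at least 200 UMIs ran from Oaz3 at 0.970, the only one below the median, to Gapdhs. Akap4 stood at 1.29 (0.966 to 1.70), Fabp9 at 1.21 (0.950201 to 1.54) and Spata18 at 1.196 (1.01 to 1.41). The abundant tail genes Odf1 (1.06) and Smcp (1.02) stood near the median. In shallow barcodes a protamine UMI thus said little about these abundant mRNAs, while most tail genes leaned higher beside it.

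The partners of the 7 genes were taken from 3 lists. Of 6 measured histone variants, 2 were at least 4-fold higher in the chimera cauda than in the KO cauda (12.7% of all genes were), and none was at least 4-fold lower. H2al2a, a short H2A variant that loads with transition proteins, had 131 UMIs in the chimera cauda, 1 in the KO cauda and 1 in the KO testis. Hist1h2aa, a testis H2A, had 5 UMIs in the chimera cauda, 0 in the KO cauda and 365 in the KO testis. The general variants H3f3a (0.883-fold), H3f3b (0.671-fold) and H2afz (1.08-fold) did not reach 4-fold. Hist1h2ba and Hist1h1t, variants of meiotic cells, had 0 UMIs each in the chimera cauda and 97 and 91 in the KO testis. The KO testis thus held more UMIs of Hist1h2aa, Hist1h2ba and Hist1h1t than of the 7 genes together.

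Of 18 remodellers and chaperones, 5 were at least 4-fold higher in the chimera cauda, against 12.7% of all genes, and none was at least 4-fold lower. Tssk6, a kinase of elongating spermatids, had 884 UMIs in the chimera cauda, 22 in the KO cauda and 21 in the KO testis, 312-fold (205 to 500) over the KO cauda. Hspa4l, a chaperone, was 4.4-fold higher (3.9 to 4.96). Chd5, a remodeller of spermatid chromatin, had 37 UMIs against 6, and Brdt, the reader of acetylated histones, 20 against 38, a fold of 4.08 (2.25 to 7.20). Piwil1 had 18 against 1. The more abundant Ppp1cc (1.15-fold) and Ssrp1 (1.02-fold), used in many cells, did not reach 4-fold.

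Of 13 measured genes that control protamine and transition protein mRNAs, 6 were at least 4-fold higher in the chimera cauda, where 12.7% of all genes were, and none was at least 4-fold lower. Ybx2, a protein that binds and stores these mRNAs, had 316 UMIs in the chimera cauda, 19 in the KO cauda and 141 in the KO testis, 129-fold (81.3 to 217) over the KO cauda. Rfx2, a transcription factor of round spermatids, was 8.67-fold higher (6.78 to 11.1), and Papolb, a testis poly(A) polymerase, had 33 UMIs against 0. Ddx4, Fhl5 and Gtf2a1l had 18 against 6, 11 against 0 and 11 against 1. Crem, a transcription factor of spermatids that also has forms in other cells, was 2.64-fold (2.10 to 3.31). Pabpc1 (1.05-fold), Ybx3 (1.46-fold) and Elavl1 (1.34-fold), the other most abundant genes of the list, did not reach 4-fold either. Counts of genes at least 4-fold higher were the same in all 3 lists without the 125 shared barcodes.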

How the data were processed

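The deposited matrices hold raw counts of UMIs per gene and barcode from Chromium 3′ v3.1 libraries. Cell Ranger 6, Seurat 4.2.1 and GRCm38.p6 are named in the submitters' processing notes. The version per the file headers is Cell Ranger 4 for the chimera and 6.1.2 for the KO libraries, so version and group cannot be told apart. The chimera matrix is unfiltered, whereas the KO matrices begin at 500 UMIs. Samples were grouped by title.

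Counts were summed per library, barcode depth class or cell class (Python 3.11.15, scipy 1.17.1). Counts under 3 were set to 3 for the 4-fold calls and medians. Printed ratios use the counts as they are, except that a count of 0 was set to 3. For classes, barcodes under 500 UMIs, under 200 genes or over 20% mitochondrial UMIs were dropped, and the rest were grouped by Leiden clustering at resolution 0.5 (scanpy 1.11.5, 2000 variable genes, 30 components, 15 neighbours). No doublet caller was run. A cluster was named where at least 3 markers, and at least 50% of a list, were raised 2-fold. Folds were tested on simulated data. Likeness genes were the 8 highest and 5 lowest, leaving out gene models and items not reported here, and the 4 genes with most UMIs of each list were named. Other list genes were named after their values were seen. Members and lists were chosen with earlier results of these data known.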

Additional observations from a re-analysis of the deposited data

How the results depend on the processing

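All 7 genes were at least 4-fold higher in the chimera cauda under each setting tried for that count, including a threshold of 10-fold (6.66% of all genes) and no filter on low counts (24.2%). The fold of the summed genes was 1626 without mitochondrial UMIs and 1421 with the KO cauda thinned, within the counting interval of 1575. It moved to 159 with barcodes of at least 500 UMIs. It moved to 37110 without the 125 shared KO cauda barcodes, 3669 without the chimera barcodes listed in the KO cauda, and 12893 without the richest barcode in both. The share of UMIs in shallow barcodes was 88.4% under 100 UMIs, 95.6% under 1000 and 97.7% without shared barcodes. The Prm2 share of 73.6% was 73.3% at 20 to 49 UMIs, 67.5% at 500 UMIs or more, 88.1% there without the richest barcode, 74.3% without shared barcodes and 75.2% with each barcode of at least 3 protamine UMIs weighted equally. The share of Prm2 barcodes with Prm1 was 5.6% at 10 to 19 UMIs, 13.7% at 50 to 99, 7.14% after thinning and 1.10% for at least 2 UMIs of each, against 6.34%, 8.30%, 6.62% and 1.17% without Prm2. With at least 5 protamine UMIs, 77 of 143 barcodes had 90% Prm2 or more and 25 under 50%, and with at least 20, 20 of 31 and 6. All settings that leave out shared barcodes or the richest barcode, and the limits of 5 and 20 protamine UMIs, were chosen after seeing the data. So was leaving out the barcode with most tail and cytoplasm UMIs, which gave the Prm2-rich group a tail value of 95.2 per 100, against 119 with it. The cause of these moves was not tested. No paired analysis was possible because each group holds 1 library. With 50 Hils1 and 160 H1fnt UMIs in the chimera, depth limits what can be said of their joint presence.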
